A study of Mus musculus with 12 samples.

Results

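The genes described here carry out or answer to cell death, and 41 of them were taken by name: the BCL2 family, the proteins of mitochondria and apoptosome, caspases, inhibitors of apoptosis, death receptors with their adaptors, the proteins of necroptosis, the inflammatory caspases of pyroptosis, and p53 with its feedback and target genes. A gene was followed through the probe sets that the annotation of the array assigned to its symbol alone, and 38 of the 41 had at least 1 among the 18193 genes measured this way. Bax, Ripk1 and Trp53 had none, and their expression was not analysed here. The 38 genes had 92 probe sets, with 14 genes read by 1 probe set and 24 by more, and each gene is described at its brightest probe set, averaged over the 12 arrays, unless another is named. The study asked why Müller glia, the radial support cells of the retina, divide after damage in 1 mouse strain and scarcely in another. RNA of whole neural retina was hybridised to Affymetrix mouse genome expression arrays, and 12 arrays were read, 2 for each of 6 groups. The mice were wild-type males of 10 weeks, either C57BL/6NCrSlc (B6) or 129X1/SvJJmsSlc (129), with no transgene or engineered deletion described for either. Sequence variants that set the strains apart, in these genes or others, were not examined. In each strain the groups were normal retina, retinal explants after 3 days in vitro with vehicle (3DIV), and explants kept for the same time with 15 µM CHIR99021, an inhibitor of the kinase GSK3. The methods of the study give vehicle together with EdU, a label of newly made DNA, to the controls of all experiments. Whether the explants on these arrays had received EdU was not determined here. The labels name both arrays of a group as biological replicates but do not say whether they came from separate animals, and the p-values below measure the spread between these arrays.

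Apoptosis runs along an intrinsic and an extrinsic route. The intrinsic route uses BH3-only proteins such as Noxa (Pmaip1), Puma (Bbc3) and Bim (Bcl2l11). Each neutralises some or all of the survival proteins Bcl2, Bcl-xL (Bcl2l1) and Mcl1. Bax and Bak1 are thereby freed to open the mitochondrial outer membrane, after which cytochrome c (Cycs), Apaf1 and caspase-9 form the apoptosome. In the extrinsic route, ligands of Fas and of the TNF receptor Tnfrsf1a recruit Fadd, Tradd and caspase-8. Necroptosis, in which Ripk3 activates the membrane-breaking protein Mlkl, and pyroptosis, in which inflammatory caspases cut gasdermin D, are lytic and end in release of cell contents. In explanted or detached retina photoreceptors are the cells best known to die, while p53 answers to stress by switching on genes of arrest, of its own feedback and of death.

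Values are log2 of the intensities that the authors summarized with RMA (robust multi-array average), differences are differences of log2 values with their standard error (SE), and each level is compared only with other levels of the same probe set. A difference was called when the adjusted p of limma, with Benjamini-Hochberg adjustment over all 45037 probe sets of a comparison, was under 0.05. Array medians lay between 68.7 and 70.6 in intensity, and arrays of a group correlated at 0.997 to 0.998 over probe sets. The labelled tissue was borne out by rod markers, of which 7 of 9 were measured, with summed intensities of 93506 to 95104 in normal retina; all 7 fell after culture in both strains, to sums of 41271 to 48819. Sums of 6 cone markers were 13927 to 17725 in normal retina and 979 to 1920 in 3DIV explants. The second array of normal 129 retina stood apart in lens crystallins, with a sum over 6 genes of 23998 against 921 in the first and 180.4 to 526 in the other groups. Probe sets of 9 of the 38 genes lay below the median level of all probe sets, 6.14, where RMA values move less than the RNA does.

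Most of these genes were higher after 3 days in culture, in both strains. The largest rises were those of Pmaip1, Fas, Tnfrsf1a and Phlda3 in B6 and of Tnfrsf1a, Pmaip1, Casp8 and Bid in 129. In B6, 21 of the 38 rose and 2 fell, against 19.3% and 16.9% of all genes measured; in 129, 24 rose and 2 fell, against 19.1% and 17.0%. The median change over the 38 was 0.33 in B6 and 0.35 in 129, beside −0.00 and −0.01 over all genes. In both strains 18 rose, 2 (Bcl2 and Xiap) fell and 9 were called in neither (Aifm1, Birc2, Bmf, Cycs, Diablo, Mdm2, Ripk3, Tnfrsf10b and Trp53inp1). In bulk tissue, fewer cells of a type and less RNA per cell cannot be told apart, and the part that the fall of rod RNA had in these rises was not tested. Markers of pigmented epithelium and melanocytes were also lower at 3DIV, 7 of 8 in B6 and 6 of 8 in 129. Their sums were 9718 to 15416 in normal retina and 3687 to 4406 in 3DIV explants. Rlbp1, also used here as a Müller glia marker, was the brightest of these 8 at 3DIV (11.73 to 12.02) and dominated those sums. Ttr read 11.72 to 13.14 in normal retina and 6.12 to 6.66 in 3DIV explants, and Rpe65 8.23 to 9.83 and 4.35 to 4.84. The part of pigmented epithelium and melanocytes in these rises was not tested. Of the 21 rises in B6, 17 remained called whichever array was left out, while those of Casp4, Casp9, Casp12 and Zmat3 (0.21 to 0.46) were lost without one or another of the arrays compared (adjusted p 0.055 to 0.19); without the first normal B6 array, Casp12 read 0.20 higher and Casp4 0.30 higher, neither called. In 129, 16 of the 24 remained; those of Fadd, Bak1, Bcl2l1, Parp1, Hrk, Casp2, Casp1 and Apaf1 (0.20 to 0.45) were lost without one or another array, among them both 129 3DIV arrays and the array with lens RNA (adjusted p 0.051 to 0.30). Both falls remained in each strain.

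**Figure D1:**
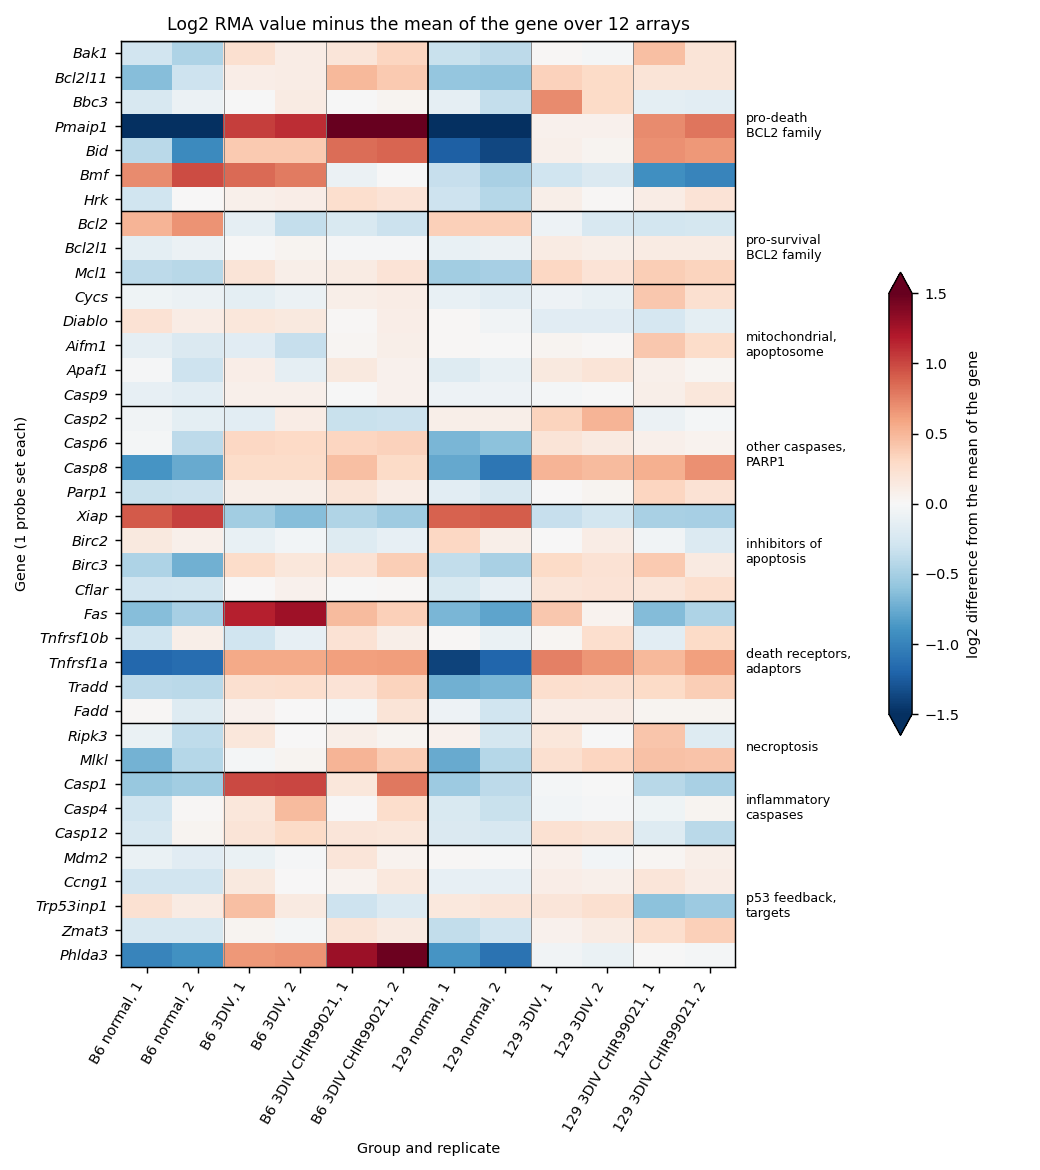
The 38 genes by role (rows) on the 12 arrays (columns); colour is the log2 RMA value minus the mean of the gene, from −1.5 (blue) to 1.5 (red), with more extreme values shown in the end colours. Pmaip1 and Tnfrsf1a are blue in the 4 arrays of normal retina and Xiap and Bcl2 red there, while Fas, Casp1 and Phlda3 are reddest in B6 explants.

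Among the 7 death-promoting members of the BCL2 family measured, 4 rose in B6 and 6 in 129, against 19.3% and 19.1% of all genes. Noxa (Pmaip1), which neutralises Mcl1, stood at 3.70 and 3.72 in normal B6 retina, at 6.52 and 6.58 in B6 3DIV explants, at 3.59 and 3.97 in normal 129 retina and at 5.55 and 5.55 in 129 3DIV explants. Every explant array lay above every array of normal retina, and the B6 explants above the 129 explants. The rise was 2.84 (SE 0.11, adjusted p = 1.85e-08, limma), or 7.16-fold, in B6 and 1.77 (SE 0.11, adjusted p = 4.55e-07), or 3.41-fold, in 129. Bid, the protein that caspase-8 cuts to carry a receptor signal to mitochondria, went from 6.12 and 5.56 to 6.91 and 6.91 in B6 and from 5.30 and 5.16 to 6.59 and 6.56 in 129, with no overlap in either strain. It rose by 1.07 (SE 0.14, adjusted p = 1.69e-04) in B6 and by 1.35 (SE 0.14, adjusted p = 2.75e-05) in 129. Bim (Bcl2l11) rose by 0.58 and 0.90 and Bak1, a pore-forming protein, by 0.55 and 0.36. Puma (Bbc3) read 6.33 and 6.48 in normal B6 retina against 6.57 and 6.70 at 3DIV, a difference of 0.22 that was not called (adjusted p = 0.223), and 6.45 and 6.21 against 7.28 and 6.86 in 129, a rise of 0.74 (SE 0.13, adjusted p = 0.00116). The test of the difference between these changes of Bbc3 was not passed (0.52, SE 0.18, adjusted p = 0.173).

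Of the 3 survival proteins, Bcl2 fell and Mcl1 rose. Bcl2 read 8.17 and 8.33 in normal B6 retina, 7.52 and 7.30 at 3DIV, 8.02 and 8.01 in normal 129 retina and 7.57 and 7.41 at 3DIV, so that all explant arrays lay below all arrays of normal retina. It fell by 0.84 (SE 0.096, adjusted p = 6.12e-05) in B6 and by 0.52 (SE 0.096, adjusted p = 0.00161) in 129. Its 5 probe sets all fell in B6, and 4 of the 5 did in 129. Mcl1, a short-lived protein that Noxa binds, rose by 0.55 (SE 0.074, adjusted p = 2.16e-04) in B6 and 0.76 (SE 0.074, adjusted p = 1.65e-05) in 129, and all 6 of its probe sets rose in each strain, by 0.30 to 1.23 in B6 and 0.65 to 1.75 in 129. Bcl-xL (Bcl2l1) differed by 0.14 in B6, which was not called, and rose by 0.20 (SE 0.066, adjusted p = 0.0397) in 129.

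The proteins of mitochondria and apoptosome moved little. Apoptosis-inducing factor (Aifm1), cytochrome c (Cycs) and Smac (Diablo), which blocks inhibitors of apoptosis, were called in neither strain at their brightest probe sets. Of the 4 probe sets of Cycs, 1445484_at fell by 0.45 in B6 and 0.67 in 129 and 1422484_at by 0.24 in each, and of these 4 calls that of 0.67 alone remained whichever array was left out; without the first B6 3DIV or first normal B6 array the fall at 1445484_at in B6 was lost. Caspase-9 rose by 0.21 (SE 0.068, adjusted p = 0.0326) in B6 and Apaf1, its scaffold, by 0.32 (SE 0.11, adjusted p = 0.0377) in 129; neither was called in the other strain, and neither change was called as different between strains. Caspase-8, the initiator below the death receptors, read 5.81 and 5.94 before and 6.98 and 6.98 after culture in B6, and 5.94 and 5.62 before and 7.21 and 7.18 after in 129. It rose by 1.10 (SE 0.11, adjusted p = 2.02e-05) and by 1.41 (SE 0.11, adjusted p = 2.75e-06), with no overlap between explants and normal retina. Caspase-6 rose by 0.52 in B6 (0.34 without the second normal array) and 0.81 in 129, and Parp1, a DNA repair enzyme that is cut during apoptosis, by 0.42 and 0.22, although its probe set 1443573_at fell by 0.40 (adjusted p = 0.0486) in 129, a call lost without any of 7 arrays, those of normal retina, of B6 3DIV and the first of 129 3DIV. Caspase-2 read 0.08 higher at 3DIV in B6 and rose by 0.34 (SE 0.098, adjusted p = 0.0224) in 129.

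Of the 4 inhibitors of apoptosis, Xiap, which binds caspases directly, fell, and Birc3 and Cflar, which act at receptor complexes, rose. At the brightest of its 7 probe sets (1437533_at), Xiap read 12.43 and 12.53 in normal B6 retina, 10.99 and 10.87 at 3DIV, 12.40 and 12.42 in normal 129 retina and 11.16 and 11.24 at 3DIV. Explants lay below normal retina in both strains, by 1.55 (SE 0.075, adjusted p = 1.06e-07), or 2.92-fold, in B6 and 1.21 (SE 0.075, adjusted p = 5.44e-07), or 2.31-fold, in 129. In each strain 6 of the 7 probe sets fell; the exception, 1450232_at, differed by −0.17 in B6 and 0.09 in 129 and was called in neither. Birc3 (cIAP2) read 4.51 and 4.25 in normal B6 retina and 5.25 and 5.14 at 3DIV, a rise of 0.81 (SE 0.11, adjusted p = 2.40e-04), and rose by 0.68 (SE 0.11, adjusted p = 7.93e-04) in 129, whereas its neighbour on chromosome 9, Birc2 (cIAP1), read 0.18 lower in B6 and 0.14 lower in 129, neither called. Cflar (c-FLIP), which blocks caspase-8, rose by 0.32 and 0.36 at its brightest probe set, but its probe sets disagreed: 1453482_at fell by 0.33 in B6 and 0.37 in 129, 1449317_at fell by 0.32 in B6, and the mean of all its probe sets differed by −0.02 in B6, which was not called.

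**Figure D2:**
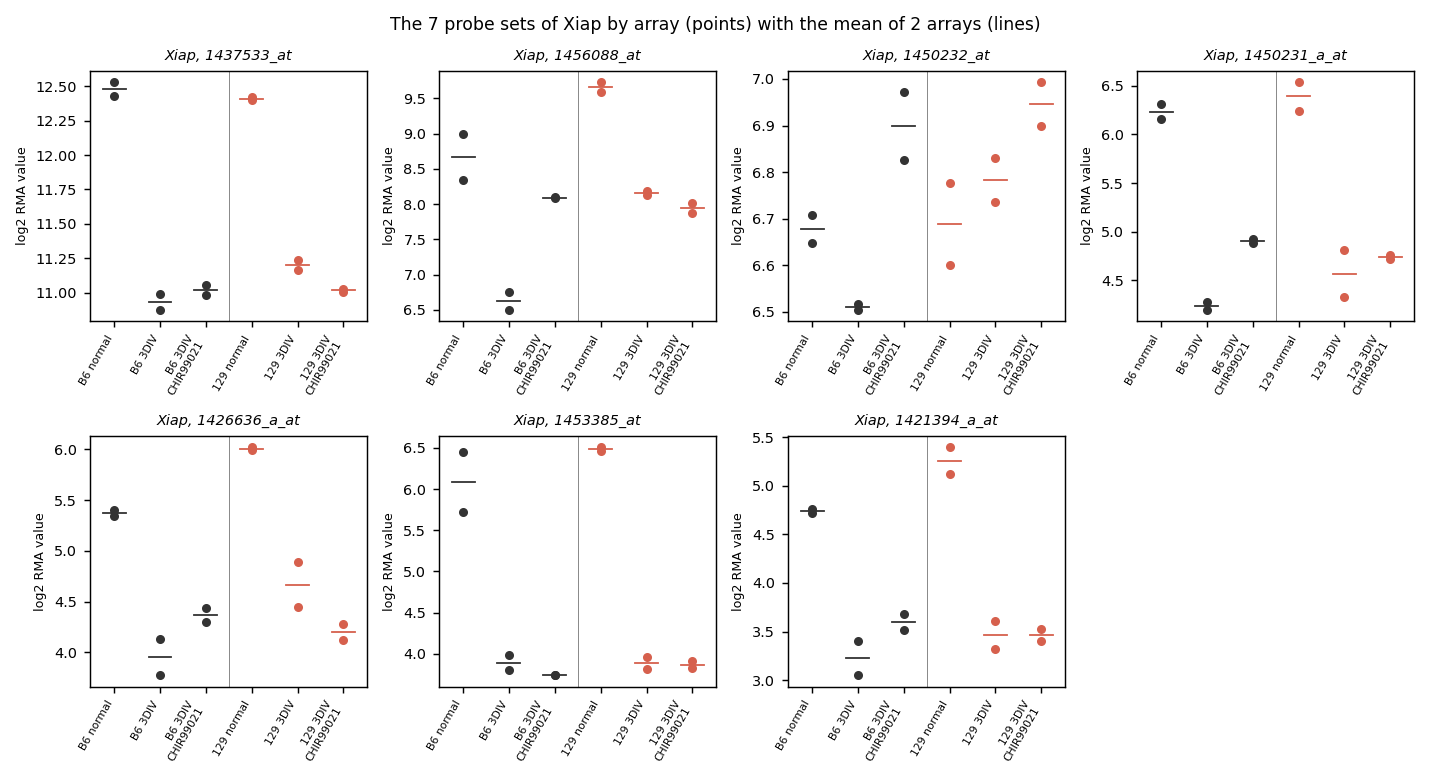
Each of the 7 probe sets of Xiap (1 panel each, own axis), log2 RMA value of every array (points) and group mean (lines), B6 in dark grey and 129 in red. The fall from normal retina to 3DIV shows at 6 of the 7; at 1456088_at the B6 arrays at 3DIV with vehicle, 6.50 and 6.75, lie below all others.

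Death receptors gave some of the largest changes. Tnfrsf1a, the main receptor of TNF, read 7.54 and 7.58 in normal B6 retina, 9.28 and 9.28 at 3DIV, 7.33 and 7.52 in normal 129 retina and 9.48 and 9.37 at 3DIV. Explants lay above normal retina without overlap, by 1.72 (SE 0.084, adjusted p = 1.10e-07), or 3.30-fold, in B6 and by 2.0 (SE 0.084, adjusted p = 3.01e-08), or 4.0-fold, in 129. Its adaptor Tradd rose by 0.64 (SE 0.072, adjusted p = 5.82e-05) and 0.95 (SE 0.072, adjusted p = 2.61e-06). Fas read 4.66 and 4.80 in normal B6 retina, 6.46 and 6.57 at 3DIV, 4.61 and 4.50 in normal 129 retina and 5.69 and 5.34 at 3DIV. The groups did not overlap: both normal retinas were lowest, then 129 explants, then B6 explants. The rises were 1.79 (SE 0.12, adjusted p = 9.79e-07) and 0.97 (SE 0.12, adjusted p = 9.95e-05). Fadd, the adaptor of Fas, read 0.12 higher in B6, which was not called, and rose by 0.31 (SE 0.10, adjusted p = 0.0474) in 129, or 0.19 and not called without the 129 array with lens RNA. Tnfrsf10b, the receptor of TRAIL, was called in neither strain.

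Of the necroptosis genes, Mlkl rose and Ripk3 was not called. Mlkl read 3.33 and 3.62 in normal B6 retina, 4.01 and 4.08 at 3DIV, 3.29 and 3.61 in normal 129 retina and 4.28 and 4.36 at 3DIV. All 4 explant arrays lay above all 4 of normal retina, by 0.57 (SE 0.12, adjusted p = 0.00337) in B6 and 0.87 (SE 0.12, adjusted p = 1.95e-04) in 129, at a low level (16.8% of probe sets had a lower mean). Ripk3 differed by 0.33 (95% interval −0.07 to 0.74) in B6 and by 0.18 (−0.22 to 0.59) in 129.

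Of the inflammatory caspases, which lie next to each other on chromosome 9, all 3 rose in B6, and Casp1 and Casp12 rose in 129. Casp1, which cuts gasdermin D and the precursors of interleukin-1β and interleukin-18, read 4.18 and 4.24 in normal B6 retina, 5.74 and 5.76 at 3DIV, 4.21 and 4.36 in normal 129 retina and 4.73 and 4.75 at 3DIV. All arrays of normal retina lay between 4.18 and 4.36, and both B6 explant arrays lay above both of 129. It rose by 1.54 (SE 0.15, adjusted p = 2.30e-05) in B6 and by 0.45 (SE 0.15, adjusted p = 0.0466) in 129, a call that was lost without any 1 of 10 arrays, all but those of B6 explants with CHIR99021 (adjusted p 0.060 to 0.21). Casp4 (caspase-11) rose by 0.46 (SE 0.13, adjusted p = 0.0202) in B6 and read 0.26 higher in 129, at a level exceeded by most probe sets (11.1% had a lower mean). Casp12, tied to stress of the endoplasmic reticulum, rose by 0.34 and 0.44.

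The markers of microglia and macrophages, cells that express several of these genes, moved in the same way: all 14 listed were measured, all 14 rose in B6 and 13 in 129. Their summed intensity went from between 1897 and 2004 in normal B6 retina to between 6504 and 7228 at 3DIV, and from between 1223 and 1245 to between 2951 and 3012 in 129. All 14 were lower in 129 than in B6 explants at 3DIV. Their part in the rises of Casp1, Fas, Tnfrsf1a and the others was not tested.

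Among the members listed under p53, its regulator and its targets of arrest and feedback, 3 of the 5 measured rose in B6 and 2 in 129. Over all genes 19.3% and 19.1% rose. Any p53 targets listed under other roles, such as the BCL2 family or death receptors, are not in this count. Phlda3, a p53 target that holds back the kinase Akt, read 6.99 and 7.07 in normal B6 retina, 8.62 and 8.66 at 3DIV, 7.10 and 6.87 in normal 129 retina and 7.93 and 7.88 at 3DIV. Explants lay above normal retina in both strains, and B6 explants above 129 explants. The rises were 1.61 (SE 0.093, adjusted p = 3.50e-07) and 0.92 (SE 0.093, adjusted p = 2.37e-05). Zmat3, an RNA-binding target of p53, rose by 0.24 and 0.42, and cyclin G1 (Ccng1) by 0.36 (SE 0.074, adjusted p = 0.00342) in B6 and read 0.21 higher in 129, which was not called; its probe set 1450016_at rose by 0.61 in B6, a call lost without the second normal or first 3DIV array, and by 0.86 in 129. Mdm2, the ligase that degrades p53, differed by 0.08 (95% interval −0.09 to 0.24) in B6 and 0.01 (−0.16 to 0.17) in 129 at its brightest probe set, whereas 1427718_a_at fell by 0.50 (SE 0.096, adjusted p = 0.00225) in B6 and differed by 0.06 in 129, changes that were not called as different between strains. Trp53inp1 was called in neither strain.

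**Figure D3:**
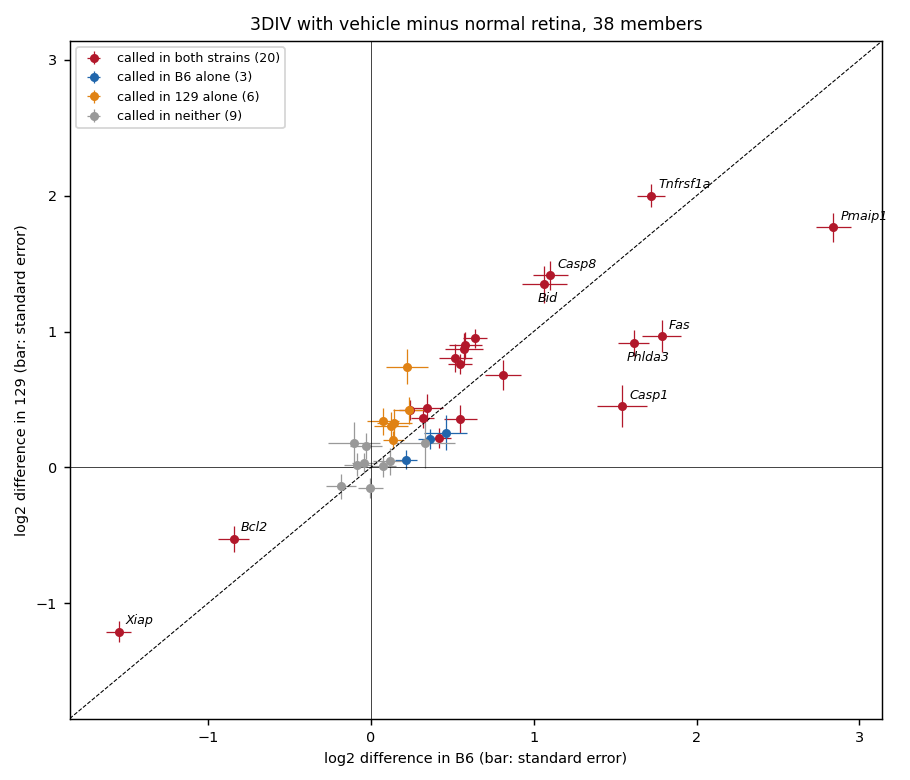
Change of each of the 38 genes after culture (3DIV with vehicle minus normal retina, log2, with standard errors) in B6 (horizontal) and 129 (vertical); the dashed line marks equal change. Pmaip1, Fas, Phlda3 and Casp1 lie well below the line, and Xiap and Bcl2 are the pair that fell.

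Other genes of the same routes were read from lists. Over all genes, 19.3% rose and 16.9% fell in B6, and 19.1% rose and 17.0% fell in 129. Of 16 further apoptosis genes measured, 6 rose (37.5%) and 3 fell (18.75%) in B6, and 4 rose (25%) and 5 fell (31.25%) in 129. The largest of these changes were those of survivin (Birc5), an inhibitor of apoptosis that also serves mitosis (2.28 and 2.36), of the death-domain partner Daxx (1.25 and 1.74), of the death receptor Tnfrsf21 (0.97 and 1.38), and of the hypoxia-inducible Bnip3, which fell by 1.20 and 1.11. Of 10 further necroptosis genes, 4 rose in B6 and 3 in 129, with Zbp1, a sensor of Z-form nucleic acid, at 1.52 and 1.23 and the ubiquitin ligase Rnf31 at 1.03 and 0.93, while Tnfaip3 (A20), a brake on NF-κB, fell by 2.76 and 2.37. Of 9 further pyroptosis genes, 5 rose in B6, and 2 rose and 1 fell in 129. The adaptor Pycard (ASC) rose by 3.10 (SE 0.14, adjusted p = 7.75e-08) and 2.08 (SE 0.14, adjusted p = 1.23e-06), and gasdermin D (Gsdmd) by 0.52 (SE 0.11, adjusted p = 0.00402) in B6 and by 0.21 in 129, which was not called. Of 21 further p53 targets, 8 rose and 3 fell in B6, and 7 rose and 3 fell in 129. The cell cycle inhibitor Cdkn1a (p21) rose by 2.39 (SE 0.15, adjusted p = 6.92e-07) in B6 and 2.38 (SE 0.15, adjusted p = 6.50e-07) in 129, the receptor Eda2r by 2.34 and 1.97, Gadd45a by 1.41 and 1.37 and Rps27l by 1.21 and 1.53, while Tigar, which lowers glycolysis, fell by 0.83 and 0.96.

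Between the strains, Bmf was lower in 129 in every state at 1 of its 3 probe sets. Pmaip1, Phlda3, Fas and Casp1 were lower in 129 explants. The share of the 38 called in either direction lay near that of all genes, but the directions were uneven. The share lower in 129 was 10.5% in normal retina, 15.8% at 3DIV and 15.8% with CHIR99021, against 5.83%, 10.2% and 5.02% of all genes. The share higher in 129 was 0%, 10.5% and 0%, against 5.41%, 10.8% and 7.32%. In normal retina 4 of the 38 were lower in 129 and 0 higher by limma (1 at an unadjusted p under 0.05), against 5.83% and 5.41% of all genes (11.2% in either direction). Bmf, a BH3-only protein held at the motor complexes of the cytoskeleton, read 7.65 and 7.93 in B6 and 6.60 and 6.46 in 129, a difference of −1.26 (SE 0.098, adjusted p = 1.40e-05), or 2.39-fold. It was also lower in 129 at 3DIV (−1.07) and with CHIR99021 (−0.91), without overlap of the strains in any state. This came from 1 of its 3 probe sets, 1454880_s_at; the other 2 were dim and differed by −0.22 to 0.11, with none of these called. Bid (−0.61), Casp6 (−0.43) and Tradd (−0.31) were lower in normal 129 retina as well, yet the call of Bid was lost without the 129 array with lens RNA (adjusted p 0.10), that of Casp6 without either 129 array or the first B6 array, and that of Tradd without any of the 4 (adjusted p 0.062 to 0.11 for both). Without the first B6 array, Bid differed by −0.34 and Casp6 by −0.25. Other probe sets gave further calls in normal retina that remained whichever array was left out: Xiap at 1456088_at was higher in 129 by 1.0 and Cflar at 1425686_at by 0.51, and Bcl2 at 1443837_x_at was lower by 1.04.

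At 3DIV, 6 were lower and 4 higher in 129, against 10.2% and 10.8% of all genes (20.9% in either direction), and with CHIR99021 6 were lower and 0 higher by limma (5 at an unadjusted p under 0.05), against 5.02% and 7.32% (12.3% in either). The same 5 were lower in 129 in both states whichever array was left out: Bmf, Pmaip1 (−1.0 with vehicle and −0.82 with CHIR99021), Phlda3 (−0.74 and −1.40), Fas (−0.99 and −0.97) and Casp1 (−1.01 and −0.93, the latter −0.62 without the second treated B6 array). Diablo was lower at 3DIV by 0.33, a call lost without either 129 array or the first B6 array (adjusted p 0.055 to 0.060), and Casp12 with CHIR99021 by 0.48, lost without either B6 array or the second 129 array (adjusted p 0.056 to 0.10). Aifm1 (0.28), Bbc3 (0.44), Casp2 (0.44) and Xiap (0.27) were higher in 129 at 3DIV. All 4 of these calls were lost without at least 2 of the 4 arrays compared: Aifm1 and Xiap without the second B6 or either 129 array, Bbc3 without either B6 or the first 129 array, and Casp2 without the first B6 or the second 129 array (adjusted p 0.063 to 0.25); without the first 129 array Bbc3 differed by 0.23. Other probe sets were higher in 129 at 3DIV whichever array was left out: Xiap 1456088_at by 1.53, Mdm2 1427718_a_at by 0.80, Mcl1 1416881_at by 0.77 and 1448503_at by 0.49, and Cflar 1449317_at by 0.54 and 1425686_at by 0.49, whereas Bcl2 1443837_x_at was lower by 0.56.

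The change after culture itself differed between the strains for 4 of the 38, all smaller in 129, against 1.32% of all genes called in that direction and 1.74% in the other (3.07% in either). For Pmaip1 the difference was −1.07 (SE 0.15, adjusted p = 0.00592), and it remained called whichever array was left out (−0.88 to −1.26). For Casp1 it was −1.09 (SE 0.22, adjusted p = 0.0279), for Fas −0.82 (SE 0.17, adjusted p = 0.0309) and for Phlda3 −0.70 (SE 0.13, adjusted p = 0.0221). Those of Phlda3 (−0.59 to −0.81) and Fas (−0.64 to −1.0) kept their sign but were lost without either B6 3DIV array, the second 129 3DIV array or the first array of either normal retina, that of Phlda3 also without the first 129 3DIV array and that of Fas also without the second normal 129 array. That of Casp1 (−1.01 to −1.17) was lost without any of the 8 arrays compared (adjusted p 0.054 to 0.11 for the 3 genes). Microglial markers differed in the same direction for 5 of 14, with their sums as given above, and their part in these differences was not tested.

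**Figure D4:**
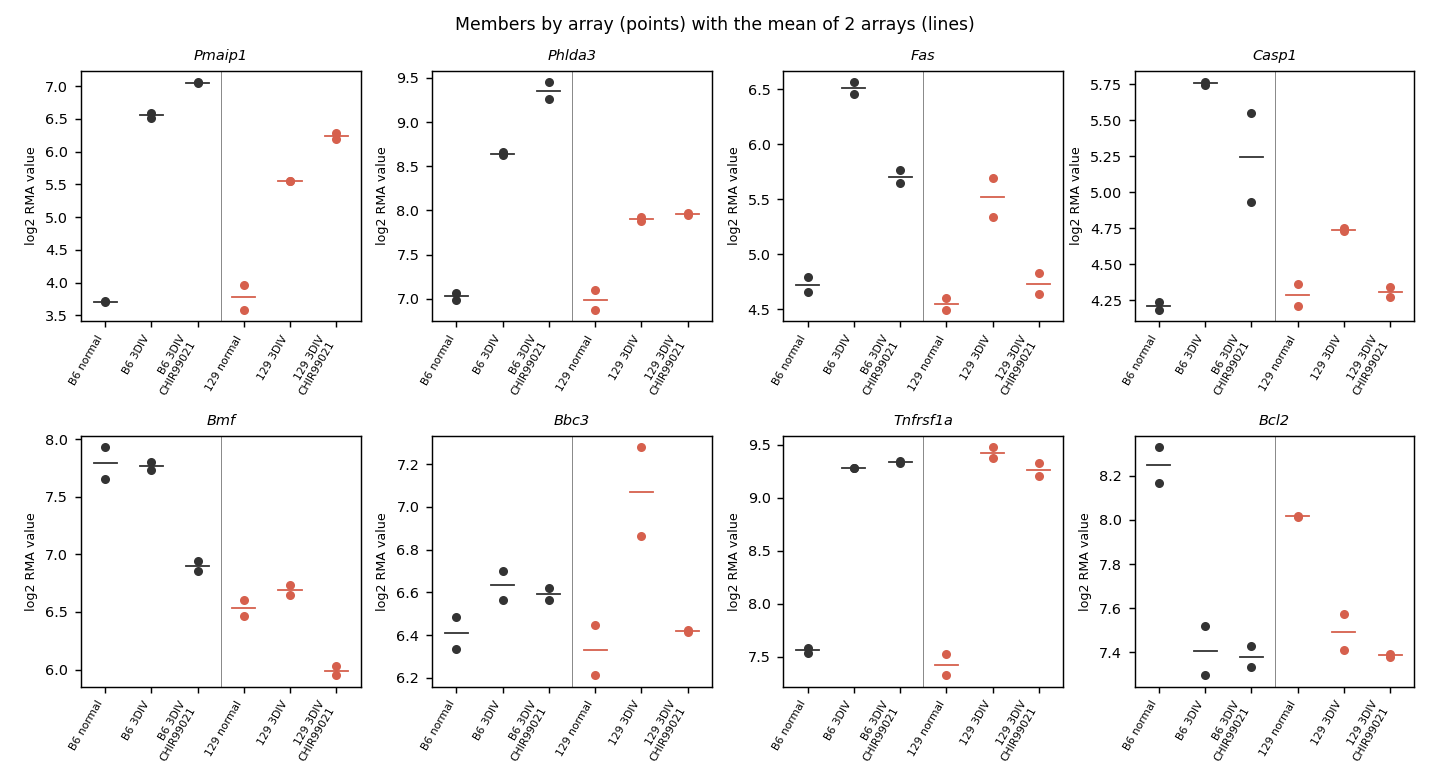
Log2 RMA value on every array (points) and group mean (lines) of 8 genes, each panel on its own axis, B6 in dark grey and 129 in red. Pmaip1, Phlda3, Fas and Casp1 were called between strains at 3DIV and not in normal retina, and Bmf is apart in all 3 states.

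The sequences before the start sites of Phlda3, Fas and Casp1 are shown because the change of these genes after culture differed between strains; they are RefSeq reference sequence of GRCm38.p6, 150 bases ending at the base before the start, on the strand of the gene, with CpG dinucleotides in capitals. Phlda3 (chr1:135765935-135766084, plus strand) holds 12 CpG, more than 76.9% of all windows of this length, Fas (chr19:34290509-34290658, plus strand) holds 6, and Casp1 (chr9:5298367-5298516, plus strand) holds 1, while the median over all windows is 4. Neither the p53 half-site consensus nor the NF-κB site consensus was found on either strand within 250 bases before to 50 after their starts, which says only that these letters are not in that window. Pmaip1 had no such window. The sequences of the strains were not compared, so these windows cannot bear on the difference between them.
Phlda3: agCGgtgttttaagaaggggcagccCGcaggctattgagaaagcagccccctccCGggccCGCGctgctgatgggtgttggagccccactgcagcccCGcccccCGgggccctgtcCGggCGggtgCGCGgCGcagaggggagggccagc
Fas: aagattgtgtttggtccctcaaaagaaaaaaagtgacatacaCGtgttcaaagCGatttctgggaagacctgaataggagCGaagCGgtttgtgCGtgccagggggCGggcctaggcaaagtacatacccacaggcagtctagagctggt
Casp1: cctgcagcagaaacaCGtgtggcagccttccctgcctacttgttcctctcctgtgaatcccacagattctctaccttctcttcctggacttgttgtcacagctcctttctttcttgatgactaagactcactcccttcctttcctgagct

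The 36 members with a window include Bax and Trp53, which had no probe set here. Of the 36, 6 (16.7%) held the p53 half-site consensus (Bax, Birc2, Bmf, Ccng1, Mdm2 and Trp53). The NF-κB consensus was held by 8 (22.2%), Trp53 among them. Over 27025 genes the share was 9.55% for each. Of these 6 holders of the p53 half-site, Mdm2 and Ccng1 are shown with 60 bases around the match, in capitals. They lie at chr10:117710910-117710969 (minus strand) for Mdm2 and chr11:40755437-40755496 (minus strand) for Ccng1. Their changes after culture are given above, and a match is not a bound site.
Mdm2: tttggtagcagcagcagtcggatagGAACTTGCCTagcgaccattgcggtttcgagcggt
Ccng1: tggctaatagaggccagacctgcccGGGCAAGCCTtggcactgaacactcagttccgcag

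CHIR99021 moved fewer of these genes, and in both directions. In B6, 6 rose and 4 fell, against 8.59% and 12.5% of all genes; in 129, 5 rose and 6 fell, against 7.28% and 7.86%. The 6 in B6 became 12 with the mean of the probe sets of a gene and 2 without any 1 of the 4 B6 explant arrays, and the 5 in 129 became 2 or 3 without any 1 of the 4 129 explant arrays and 3 with only the arrays compared. The median effect over the 38 was 0.04 in B6 and 0.01 in 129, beside −0.01 and 0.01 over all genes. In both strains Pmaip1, Bid and Aifm1 rose and Fas, Bmf and Trp53inp1 fell, and 23 were called in neither. These effects and the changes after culture share the explants with vehicle, so a high or low vehicle array moves them in opposite directions. Levels of single genes are set side by side below, and whether the inhibitor undid or added to a change of culture was not tested.

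Fas, which had risen in culture, read 5.76 and 5.65 with CHIR99021 against 6.46 and 6.57 with vehicle in B6, and 4.64 and 4.83 against 5.69 and 5.34 in 129, where the treated arrays came near those of normal retina (4.61 and 4.50). It fell by 0.81 (SE 0.12, adjusted p = 0.00115) in B6 and by 0.78 (SE 0.12, adjusted p = 0.00205) in 129. Bmf read 6.86 and 6.94 against 7.80 and 7.73 in B6 and 6.03 and 5.95 against 6.65 and 6.73 in 129, falls of 0.86 (SE 0.098, adjusted p = 2.39e-04) and 0.70 (SE 0.098, adjusted p = 0.00124) at a probe set that culture alone had not moved. Trp53inp1, a p53 target that takes part in autophagy, read 9.24 and 9.36 against 10.01 and 9.69 in B6 and 8.95 and 9.01 against 9.74 and 9.80 in 129, falls of 0.55 (SE 0.10, adjusted p = 0.00382) and 0.79 (SE 0.10, adjusted p = 7.36e-04). Treated and vehicle arrays did not overlap for any of the 3 in either strain, and these 6 calls remained whichever array was left out.

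Noxa (Pmaip1), which culture had raised, was higher still with the inhibitor, at 7.06 and 7.04 in B6 and 6.19 and 6.28 in 129. The further rise was 0.50 (SE 0.11, adjusted p = 0.00867) in B6, a call lost without the first 3DIV array (adjusted p 0.056), and 0.69 (SE 0.11, adjusted p = 0.00235) in 129. Bid read 7.36 and 7.39 in treated B6 and 7.21 and 7.17 in treated 129 explants, above all vehicle arrays, a rise of 0.47 (SE 0.14, adjusted p = 0.0395) and 0.61 (SE 0.14, adjusted p = 0.0169). Aifm1 rose by 0.32 in each strain. The calls of Bid were lost without any of the 8 explant arrays in B6 (adjusted p 0.055 to 0.14) and without any of the 4 arrays compared in 129 (0.069 to 0.095), and those of Aifm1 without the second vehicle or either treated array in B6 and without any of the 4 in 129 (0.056 to 0.20).

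Phlda3 separated the strains again. It read 9.26 and 9.45 in treated against 8.62 and 8.66 in vehicle explants of B6, and 7.97 and 7.95 against 7.93 and 7.88 in 129. B6 arrays with the inhibitor were the highest of all 12, and the 129 explants, treated or not, stayed between 7.88 and 7.97. The rise in B6 was 0.71 (SE 0.093, adjusted p = 5.60e-04), the difference in 129 was 0.06 (95% interval −0.15 to 0.26), and the test of the difference of these effects gave −0.66 (SE 0.13, adjusted p = 0.0381), the only call of this kind among the 38 at the probe set that stands for the gene, against 0.357% of all genes in that direction and 0.599% in the other. It was lost without any 1 of the 8 explant arrays (−0.56 to −0.76, adjusted p 0.055 to 0.12) and with a replicate block (adjusted p 0.061).

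In B6, Bcl2l11 (0.34) and Mlkl (0.44) also rose and Casp1 (−0.51) fell; in 129, Cycs (0.42) and Parp1 (0.25) also rose, and Bbc3 (−0.65), Casp12 (−0.51) and Casp2 (−0.48) fell. None of these 8 was called as an effect that differed between strains. Of these 8 calls, that of Cycs alone remained whichever array was left out. That of Mlkl was lost without any of the 4 arrays compared (adjusted p 0.055 to 0.14), those of Casp1 and Bcl2l11 without any of 9 and of 10 of the 12 arrays (0.052 to 0.21; Casp1 at −0.20 without the first treated B6 array and −0.82 without the second) and that of Parp1 without any of the 12 (0.054 to 0.25). Those of Casp12, Bbc3 and Casp2 were lost without 2 or 3 of the arrays compared in 129, the first vehicle or first treated array for Bbc3, the second vehicle or first treated array for Casp2, and either vehicle or the second treated array for Casp12 (0.051 to 0.093). Puma (Bbc3) in 129 read 6.42 and 6.41 with CHIR99021, the level of normal 129 retina, against 7.28 and 6.86 with vehicle. In B6 it read 6.57 and 6.62 against 6.57 and 6.70, and the effects in the 2 strains did not pass the test of their difference (−0.61, SE 0.18, adjusted p = 0.15).

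**Figure D5:**
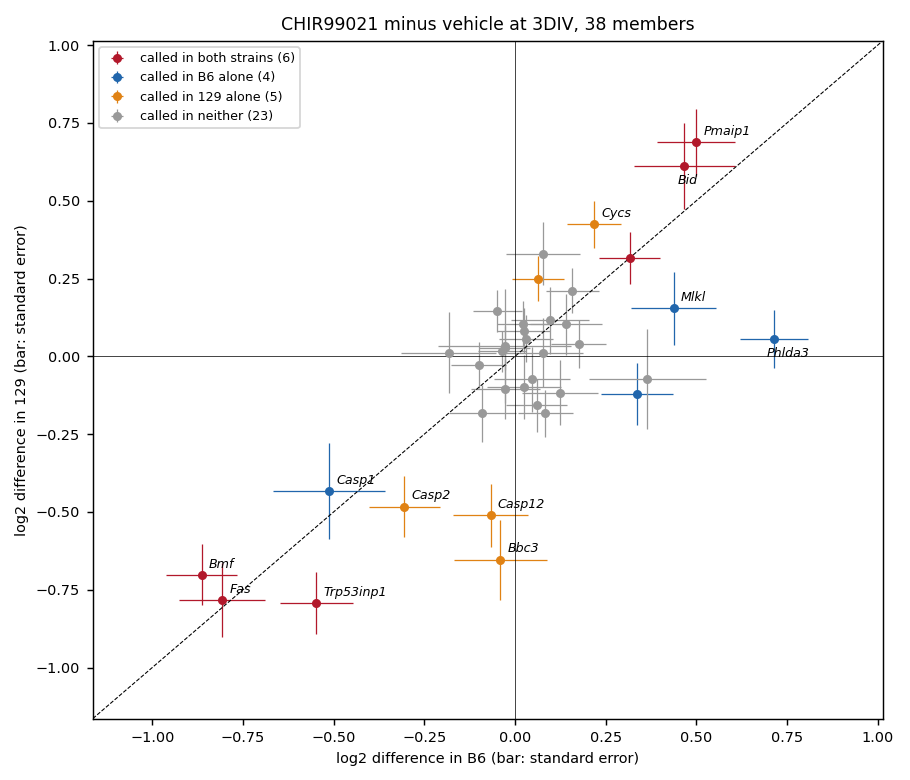
Effect of CHIR99021 at 3DIV (inhibitor minus vehicle, log2, with standard errors) on each of the 38 genes in B6 (horizontal) and 129 (vertical); the dashed line marks equal effect. Fas, Bmf and Trp53inp1 lie low in both strains, Pmaip1 and Bid high in both, and Phlda3 far right of the line.

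The microglial markers were lower with CHIR99021, 13 of 14 in B6 and 10 of 14 in 129, with sums of 3106 to 3223 and 1825 to 1831. Fas fell in both strains and Casp1 in B6, while Pmaip1 rose in both strains and Phlda3 in B6. Between the strains at 3DIV, all 4 of these genes and the microglial sums were lower in 129. In normal retina 10 of the 14 markers were lower in 129, whereas none of these 4 genes was called there. The part of microglia in these results was not tested. Rod sums were lower with the inhibitor as well, at 33792 to 33884 in B6 and 31890.4 to 34943 in 129.

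For Xiap and Mdm2, 1 probe set each gave an effect of CHIR99021 that differed by strain, while their brightest probe sets gave no such call. At 1456088_at, Xiap read 8.34 and 8.99 in normal B6 retina, 6.50 and 6.75 at 3DIV and 8.10 and 8.08 with CHIR99021, against 9.73 and 9.59, 8.19 and 8.14, and 8.01 and 7.87 in 129. The B6 explants with vehicle were lowest by far, and with the inhibitor the strains differed by −0.15, which was not called. The inhibitor effect was 1.47 (SE 0.17, adjusted p = 2.86e-04) in B6 and −0.22 in 129, and their difference of −1.68 (SE 0.24, adjusted p = 0.0103) remained called whichever array was left out. At 1427718_a_at, Mdm2 read 6.58 and 6.63 in B6 explants with vehicle, 7.62 and 7.48 with CHIR99021, and between 7.27 and 7.64 on all 129 arrays. It rose by 0.95 (SE 0.096, adjusted p = 1.29e-04) in B6 and differed by 0.20 in 129, and the difference of −0.75 (SE 0.14, adjusted p = 0.0261) was lost without either B6 vehicle array, either 129 treated array, the first B6 treated or the second 129 vehicle array (adjusted p 0.064 to 0.12).

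Of the listed genes of the same routes, 2 p53 targets rose and 4 fell with CHIR99021 in B6, and 5 rose and 2 fell in 129. These were 9.52% and 19.0% of the 21 measured in B6, and 23.8% and 9.52% in 129. Over all genes, 8.59% rose and 12.5% fell with CHIR99021 in B6, and 7.28% rose and 7.86% fell in 129. Sesn2, a stress protein that restrains mTORC1, rose by 1.56 (SE 0.12, adjusted p = 2.11e-05) and 0.83 (SE 0.12, adjusted p = 0.00133), while Cdkn1a differed by 0.07 and 0.24, neither called. Of 16 apoptosis genes, none rose and 2 fell in B6, and 1 rose in 129. That gene, Birc5, read 6.06 and 5.98 with vehicle and 5.99 and 5.96 with the inhibitor in B6, and 6.25 and 5.89 with vehicle and 8.0 and 7.75 with the inhibitor in 129. Treated 129 explants were above all others, a rise of 1.80 (SE 0.13, adjusted p = 2.57e-05), and the difference between the strains was 1.84 (SE 0.19, adjusted p = 0.00283). Of 9 pyroptosis genes, none rose and 2 fell in B6, where Pycard fell by 1.20 (SE 0.14, adjusted p = 3.49e-04), and 1 rose and 3 fell in 129. Of 10 necroptosis genes, 1 rose in B6 and 3 in 129, and none fell.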

How the data were processed

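RMA summaries of the 12 arrays were deposited by the authors as linear intensities and were taken to log2 without a filter on signal; no RMA version was found in the sources used here. Of 45101 probe sets, 64 controls were left out, and 34945 had 1 gene symbol in the platform annotation. Groups came from the labels, which give 15 µM for CHIR99021, whereas the methods give 2 doses. A model with 1 mean for each of 6 groups was fitted to all arrays with limma 3.58.1 in R 4.3.3 (eBayes without trend, not robust, 4.69 prior and 6 residual degrees of freedom), with Benjamini-Hochberg adjustment within each of 9 comparisons; it was tested on simulated data. Strain differences are 129 minus B6.

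The members and gene lists were chosen with earlier results of these data known. Named genes were, per comparison, up to 8 called members in each direction by size, every member whose change differed between strains, the 2 with the largest change in each role, and up to 3 called genes of each further list; Cdkn1a and Gsdmd were named by role. Some further genes were named after their values were seen, to account for calls of 5 or fewer. Probe sets ending in s_at or x_at can bind related transcripts. Whether the probes match the sequence of each strain equally was not examined. Promoter windows were RefSeq sequences of GRCm38.p6. Alternatives were a replicate block, only the arrays compared, eBayes with trend and robust, cyclic loess, a filter on probe sets below the median, the mean of the probe sets of a gene, and leaving out each array. The number of arrays limits the precision. Figures were drawn with matplotlib 3.10.9 in Python 3.11.15.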

Additional observations from a re-analysis of the deposited data

Results flagged for a closer look

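For these results a test of the difference between the strains was passed (limma, adjusted p under 0.05), and no explanation was weighed. The change after culture differed, 129 minus B6, by −1.02 for Pycard, −0.91 for Il18, −1.07 for Pmaip1, −0.65 for Dcxr, 0.51 for Mcl1 at probe set 1448503_at, −0.70 for Phlda3, −1.09 for Casp1 and −0.82 for Fas. Those of Pmaip1 and Il18 remained called whichever array was left out. Il18, the precursor of a cytokine that Casp1 cuts, read 8.37 and 8.34 in normal B6 and 9.44 and 9.57 in normal 129 retina, rose by 0.71 (SE 0.085, adjusted p = 9.25e-05) in B6 and differed by −0.20 in 129, so that the strains came together at 3DIV. The difference of Pycard was lost without any B6 normal or any 3DIV array (adjusted p 0.055 to 0.11), that of Dcxr without any of the 8 arrays compared (0.055 to 0.12), and that of Mcl1 without any of these but the second B6 normal array (0.051 to 0.084). The effect of CHIR99021 differed by 1.84 for Birc5, −0.75 for Mdm2 at 1427718_a_at, −0.66 for Phlda3 and −1.68 for Xiap at 1456088_at; those of Birc5 and Xiap remained called whichever array was left out.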

How the results depend on the processing

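Of 194 calls of a member's probe set in a comparison, 109 remained whichever of the 12 arrays was left out and 106 in every alternative. Counts of members called that moved by over 1.5 times were these. With only the arrays compared, those lower in normal 129 retina fell from 4 to 1, those higher in 129 at 3DIV from 4 to 1 and those raised by the inhibitor in 129 from 5 to 3. With the mean of the probe sets of a gene, those higher in 129 became 2 in normal retina, 8 at 3DIV and 2 with CHIR99021, those raised by the inhibitor in B6 became 12, and the changes that differed by strain became 2 higher after culture and 2 lower under the inhibitor. With trend and robust eBayes, 3 were higher in 129 with CHIR99021 and 1 after culture by strain. With cyclic loess 2 were higher in 129 at 3DIV. Above the median level, where 29 members were measured, 3 were lower in 129 at 3DIV, 3 higher with CHIR99021 and 1 lower after culture by strain. Pmaip1 (mean 5.48), Fas (5.29) and Casp1 (4.76) lay below that level, so the filter removed them and their calls were not retested. Same-numbered arrays did not deviate together (15 pairs, correlation −0.107 to 0.0436), and a replicate block, tried although the numbers do not pair the samples, took the 1 inhibitor effect that differed by strain, that of Phlda3, to 0. The rise of Cflar in B6 turned to −0.0234 with the mean of its probe sets. Leaving out 1 array, counts ranged from 1 to 4 lower in normal 129 retina; 1 to 4 higher at 3DIV; 0 to 1 higher with CHIR99021; 2 to 6 raised by the inhibitor in B6 and 2 to 4 in 129; after culture by strain, 1 to 4 lower and 0 to 1 higher; and by the inhibitor 0 to 1 lower. Apart from the genes that the median filter removed, the causes of these shifts were not tested.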
